A study of Mus musculus with 8 samples.

Results

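Thymic tuft cells of the adult medulla were chosen by a rule on measured counts in the adult medullary thymic epithelial cell (mTEC) libraries. Cells with at most 5% of their unique molecular identifiers (UMIs, counted RNA molecules) from mitochondrial genes and at most 5000 detected genes were kept. A cell was called a tuft cell when Trpm5, Avil, Dclk1, Gnb3, Sh2d6 and Pou2f3 together had 5 UMIs or more. The rule took 198 of 7201 adult mTEC, which were 24 of 1586 cells in replicate 1 and 174 of 5615 cells in replicate 2, out of 25750 cells within the same limits in the 8 libraries of the series. The 7003 remaining adult mTEC of the same libraries are called other mTEC below.

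The study profiled single thymic epithelial cells (TEC) of WT C57 B6 (CD45.2) mice from the embryo to the adult by droplet sequencing, to follow how TEC transcription differs with age. Both adult mTEC libraries were labelled Thymus and sorted as DAPI- EpCAM+ CD45- Ly51- UEA-1+ cells, where UEA-1 is a lectin that binds mTEC, and the adult cortical TEC (cTEC) libraries as DAPI- EpCAM+ CD45- Ly51+ UEA-1- cells. Adult mice were 4 to 6 weeks old and of either sex. No number of animals behind each library was given in the sources used here, so p-values cover only these 2 libraries, whose differences may be technical. The tests compared tuft cells and other mTEC within each library and took much of the spread from all genes together. A gene could thus pass with unlike differences in the 2 libraries. One label names bone marrow as the source of the sorted suspensions, whereas the epithelial gene Epcam was at 865 and 760 counts per 1000000 UMIs (CPM) in the tuft cells of replicates 1 and 2 and at 998 and 670 CPM in other mTEC.

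Tuft cells are epithelial cells with a brush of microvilli, first known from gut and airway, where they sense their surroundings through a taste-type cascade. A receptor activates the G protein gustducin, phospholipase C releases calcium from stores through inositol trisphosphate receptors, and the channel Trpm5 opens. The transcription factor Pou2f3 is required to form them, and their outputs include the cytokine IL-25, acetylcholine, leukotrienes and prostaglandins. In the thymus they are a branch of the mTEC, cells best known for displaying peripheral tissue antigens to developing T cells, often under the control of Aire.

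Pou2f3 binds an octamer motif, ATGCAAAT or its reverse complement ATTTGCAT. Promoters of 3 genes of the tuft lists are shown, which hold the motif and whose genes stood higher in tuft cells. The motif was also found in promoters of Il1rl1, Sucnr1, Il4ra and Il33, genes of the lists that did not pass as higher and are not shown. 1810046K07Rik encodes a coactivator of Pou2f3 that was later named Pou2af2, Itpr3 a calcium release channel of the taste cascade and Hpgds the haematopoietic prostaglandin D synthase. Each sequence is the 200 bases before the RefSeq start site in GRCm38.p6, written 5′ to 3′ on the strand of the gene, with the motif in capitals. The window of 1810046K07Rik lies on the minus strand at chr9:51328919-51329118, Itpr3 on the plus strand at chr17:27057104-27057303 and Hpgds on the minus strand at chr6:65144731-65144930.
1810046K07Rik: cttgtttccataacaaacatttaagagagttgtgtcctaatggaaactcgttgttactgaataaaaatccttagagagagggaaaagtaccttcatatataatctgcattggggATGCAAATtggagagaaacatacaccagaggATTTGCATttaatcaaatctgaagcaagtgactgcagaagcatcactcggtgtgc
Itpr3: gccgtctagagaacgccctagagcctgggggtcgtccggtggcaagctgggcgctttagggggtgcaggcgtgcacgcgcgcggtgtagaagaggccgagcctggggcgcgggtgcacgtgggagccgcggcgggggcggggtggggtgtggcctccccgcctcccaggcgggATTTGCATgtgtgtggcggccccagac
Hpgds: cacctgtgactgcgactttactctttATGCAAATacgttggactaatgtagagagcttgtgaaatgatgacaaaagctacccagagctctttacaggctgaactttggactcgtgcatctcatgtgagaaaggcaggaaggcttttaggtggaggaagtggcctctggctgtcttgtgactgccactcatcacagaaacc
The 1810046K07Rik promoter held the octamer at 2 places. The octamer was searched on both strands with no mismatch over the whole promoter stretch, which starts further upstream than the 200 bases shown. It was found in 532 of 27025 promoters in the RefSeq table (1.97%), and in 206 of 11514 promoters of tested genes other than the rule genes (1.79%). Among called genes that reached the low-count filter's cutoff in the class where they were lower, it was found in 23 of 448 promoters of genes higher in tuft cells (5.13%) and in 7 of 273 of genes lower in them (2.56%). Of the 6 rule genes, 4 had a promoter in the table and 0 of these held it. These shares describe letters in a short stretch and were not tested.

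Cells that met the rule were 1.51% (exact binomial 95% interval 0.972 to 2.24) of adult mTEC in replicate 1 and 3.10% (2.66 to 3.59) in replicate 2. The intervals do not overlap, they cover counting error only, and with 1 library on each side the difference could not be tested between animals. The limits on cells removed 21 of 45 cells that met the rule in replicate 1 (46.7%) and 89 of 263 in replicate 2 (33.8%). Of these, 19 and 72 were over the mitochondrial limit, so mitochondrial shares below describe the kept cells only. Of all cells the limits removed 12.8% and 20.0%. With all deposited cells the shares that met the rule were 2.48% and 3.74%. Cells that also held 3 or more of the rule genes were 0.883% (14 of 1586) and 2.26% (127 of 5615). With every cell thinned to 4000 UMIs and shallower cells left out, which removed 50 cells of replicate 1 and 358 of replicate 2, the shares were 0.521% (8 of 1536 cells) and 1.96% (103 of 5257 cells). In the other libraries the rule took few cells. It took 4 of 507 adult cTEC in replicate 1, 2 of 535 in replicate 2, 1 of 1981 TEC at E13.5, 1 of 8350 cTEC at E17.5, 1 of 3605 newborn cTEC and 0 of 3571 cTEC at E15.5, which allows a share of up to 0.103%. In replicate 1 of the adult cTEC, 3 of the 4 cells had 4 or 5 rule genes detected and 20 to 40 UMIs of Lrmp, Rgs13 and Alox5ap, tuft genes outside the rule. The remaining cells of all these libraries had 0 such UMIs.

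By the values that chose them, the 4 best known tuft markers (Trpm5, Avil, Dclk1 and Pou2f3) summed to 896 and 1227 CPM in tuft cells of replicates 1 and 2, against 31.6 and 33.2 CPM in other mTEC. The rule genes did not mark the cells alike: in replicate 2, tuft cells held 1038 of the 1390 Avil UMIs of the library but 719 of its 2079 Dclk1 UMIs. A Dclk1 UMI was found in 20.5% of all cells of that library, and an Avil UMI in 7.91%. For a measure the rule had not used, each rule gene was tested in cells chosen by the other 5 genes at the same minimum. The actin-severing protein gene Avil then stood at 403 and 609 CPM in the chosen cells and at 2.18 and 7.69 CPM in the rest. The log2 difference was 6.72 ± 0.33 (edgeR, n = 2 libraries). Here and below an SE, also after ±, is derived from the edgeR test and is not the spread of the 2 library values. The channel Trpm5 stood at 114 and 204 CPM against 0.852 and 2.92 CPM, and no test is given for it because its level in the rest of replicate 1 was below the 1.10 CPM of the low-count filter. The other 5 genes passed, with the smallest differences for the kinase Dclk1 (3.77 ± 0.28) and Pou2f3 (3.89 ± 0.42), which stood at 58.4 and 76.8 CPM against 3.88 and 4.77 CPM.

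The cells that met the rule differed in how many of its genes they held. In 141 of the 198 tuft cells (14 in replicate 1 and 127 in replicate 2), 3 to 6 of the rule genes were detected, and in 57 cells (10 and 47) the 5 UMIs came from 1 or 2 genes, led by Dclk1 in 21 cells, Avil in 17 and Gnb3 in 14. Of these 57 cells, 46 had fewer than 3 UMIs of Lrmp, Rgs13 and Alox5ap together, against 15 of the 141. The 57 cells were also deeper, with a median of 12402 and 13128 UMIs per cell in replicates 1 and 2 against 6590.5 and 7572 in the 141 cells. Of them 70.0% and 59.6% had 2 or more Aire UMIs against 7.14% and 18.9%. In replicate 1 they held 135516 of the 253341 tuft cell UMIs. Levels are therefore given below for all tuft cells and, for some genes and lists, for those with 3 to 6 rule genes. Other lists differed too, and their subset levels are not all given. The levels of that subset are a description with no test, because it was chosen after its values were seen. No doublet caller was run, and the part of doublets and of free RNA in the 57 cells was not tested.

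**Figure D1:**
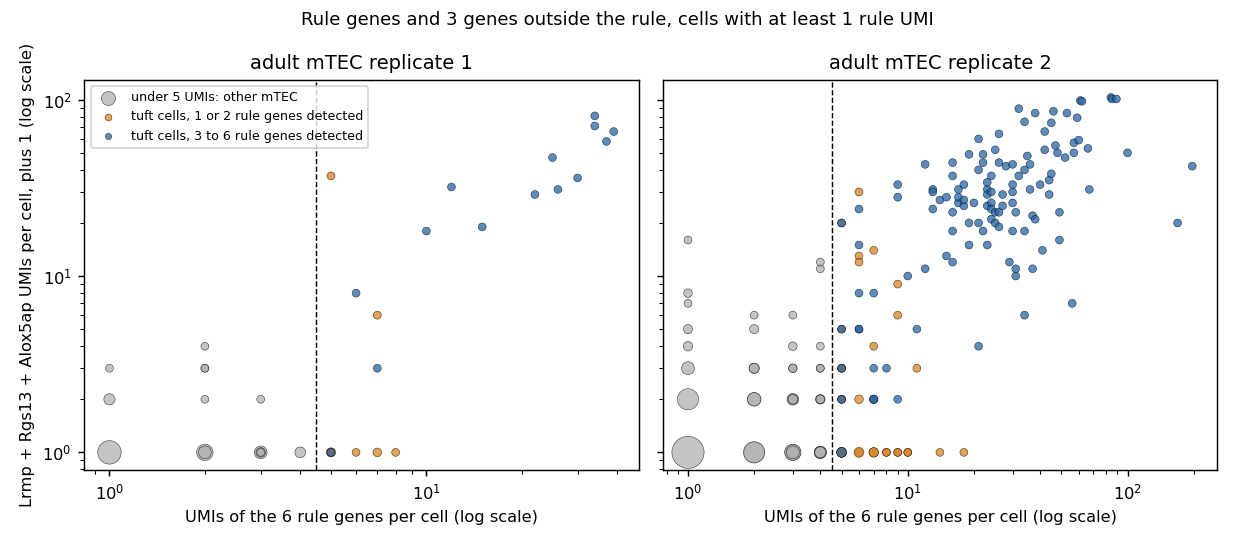
Each point is a combination of the UMIs of the 6 rule genes in a cell (x axis, log scale) and its UMIs of Lrmp, Rgs13 and Alox5ap plus 1 (y axis, log scale) among adult mTEC with at least 1 rule UMI; larger points stand for more cells, and the dashed line is the rule at 5 UMIs. Tuft cells with 3 to 6 rule genes (blue) rise to the upper right in both libraries, and most of the 57 with 1 or 2 (orange) lie at the bottom, where 46 had fewer than 3 such UMIs.

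The edge of the rule fell among cells with low tuft gene levels. Cells with a sum of 4 UMIs, just outside, numbered 8 in replicate 1 and 53 in replicate 2, and their Lrmp level was 0 and 28.5 CPM. Cells with exactly 5 UMIs, just inside, numbered 6 and 24, and their Lrmp level was 0 and 78.6 CPM, while Rgs13 reached 554 CPM in replicate 1 through a single cell with 36 UMIs. Outside the rule, 6 other mTEC of replicate 1 and 36 of replicate 2 had 3 or more UMIs of Lrmp, Rgs13 and Alox5ap.

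Across all genes, 647 of 15326 tested genes were higher in tuft cells than in other mTEC (4.22%) and 466 were lower (3.04%) at an adjusted p under 0.05 in edgeR's quasi-likelihood test on the UMIs summed over each class, with the library as a block. With DESeq2 the counts were 328 and 68. Without the library block they were 128 and 0, with 873 genes lower at an unadjusted p under 0.05. A gene that passed the low-count filter through the tuft cell sums alone had to be high in them, and one that passed through the other mTEC sums alone had to be low. Of 14402 genes that reached the filter's 1.10 CPM in both other mTEC sums, 581 were higher in tuft cells (4.03%), and of 11361 that reached it in both tuft sums, 375 were lower (3.30%). Counts of genes that rose or fell below are over genes that reached it in the class where they are lower, and list medians of the log2 difference are over genes that reached it in other mTEC, for which the median of all was -0.10. The 10 genes with the largest fitted increase among well expressed genes were Rgs13, Alox5ap, Gnat3, Il25, Lrmp, Ly6g6f, 1810046K07Rik, Sh2d7, Bmx and Ovol3, of which only Lrmp and Ovol3 reached the cutoff in both other mTEC sums. The 10 with the largest decrease were Ccl11, Dcpp1, 2810417H13Rik, Krt20, Hist1h2ap, Ccl20, Slpi, Birc5, Cga and Mgp, of which Dcpp1, Krt20, Hist1h2ap, Slpi, Birc5 and Cga were at 0 in the tuft cells of replicate 1. Tuft cells had a median of 8768.5 and 9163 UMIs per cell against 9508.5 and 11452 in other mTEC. Their median mitochondrial share was 3.81% and 2.97% against 3.14% and 2.23%, and the part of depth and mitochondrial share in the differences was not tested. The gene lists below were assembled with earlier results of these data known, so their counts are no independent evidence of direction. Rgs13, Rgs21, Gnat3, Plcb2, Il25, Chat, Alox5ap, Bmx, Sh2d7, Pik3cg, Ly6g6f, Slitrk6, Sucnr1, Foxe1 and 1810046K07Rik did not reach the cutoff in other mTEC, so their levels are given as a description with no test.

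Transcription factors known from tuft cells were higher throughout: of 10 genes 10 rose, with a median log2 difference of 2.49. The Pou2f3 coactivator gene 1810046K07Rik (ENSMUSG00000036027) stood at 186 and 237 CPM in tuft cells of replicates 1 and 2 and at 0.547 and 3.06 CPM in other mTEC. The zinc finger gene Ovol3 stood at 205 and 235 CPM against 1.40 and 4.19 CPM, a log2 difference of 6.26 ± 0.30 (edgeR adjusted p = 1.75e-91). Both were far above other mTEC in each library. The homeobox factor Prox1 stood at 19.7 and 32.4 CPM against 1.22 and 1.75 CPM (4.06 ± 0.64). The high mobility group factor Tox3 stood at 39.5 and 48.6 CPM against 1.89 and 5.91 CPM (3.43 ± 0.47). The forkhead gene Foxe1 stood at 3.95 and 25.4 CPM against 0.304 and 0.959 CPM, of which the replicate 1 tuft value was 1 UMI. Ascl2 (3.12 ± 0.75), Hmx2 (2.49 ± 0.55), Hmx3 (2.17 ± 0.49) and Gfi1b (2.49 ± 0.83) also rose. The smallest log2 differences were those of factors that other mTEC express too: Zfhx3 (1.51 ± 0.29), Sox9 (1.18 ± 0.23) and Spib (0.80 ± 0.22), which stood at 261 and 197 CPM against 124 and 117 CPM. Gfi1b, Zfhx3 and Spib did not pass in DESeq2.

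Part of the taste cascade downstream of the receptors was higher as well, with 4 of 6 genes of its list up, 0 down and a median log2 difference of 1.57. Gnat3, the alpha subunit of gustducin (chromosome 5, 17962549 to 18019834), stood at 78.9 and 253 CPM in tuft cells against 0.365 and 1.40 CPM. Its partner Gng13, the gamma subunit, stood at 612 and 1770 CPM against 16.6 and 59.4 CPM, a log2 difference of 4.95 ± 0.20 (edgeR adjusted p = 5.43e-135). Replicate 2 was higher than replicate 1 for both genes in tuft cells and in other mTEC, and tuft cells were above other mTEC in each library. The phospholipase gene Plcb2 stood at 63.2 and 86.4 CPM against 0.365 and 1.39 CPM, and Plcg2 at 67.1 and 51.8 CPM against 6.14 and 7.67 CPM (2.95 ± 0.38). The calcium release channels Itpr2 (1.67 ± 0.31) and Itpr3 (1.47 ± 0.46) rose, with Itpr3 at 27.6 and 31.3 CPM against 9.31 and 10.7 CPM, and these 2 did not pass in DESeq2. Trpm4, a channel related to Trpm5, stood at 7.89 and 12.4 CPM in tuft cells and 9.25 and 10.4 CPM in other mTEC and did not pass.

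Among G protein subunits the difference lay with few members. Of 12 alpha subunits 2 rose, Gna14 and Gnai2 (median log2 difference of the list 0.20). Of 3 beta subunits outside the rule 0 rose and Gnb4 fell (median 0.28), and of 9 gamma subunits Gng13 alone rose (median -0.64). In the RGS family, which switches G protein signals off, 2 of 15 rose and 3 of 14 fell (median -0.35). Rgs13 (ENSMUSG00000051079, chromosome 1, 144138654 to 144177372), first among the 10 genes named above, stood at 786 and 643 CPM in tuft cells against 0.791 and 2.91 CPM in other mTEC. Rgs21, a relative known from taste cells, stood at 19.7 and 48.1 CPM against 0.183 and 0.381 CPM. Rgs2 rose by 2.74 ± 0.22 (edgeR adjusted p = 2.15e-34), with 367 and 561 CPM against 72.9 and 57.6 CPM. Rgs16 rose in edgeR and not in DESeq2, and Rgs4, Rgs5 and Rgs17 fell; Rgs5, for one, stood at 237 and 162 CPM in tuft cells and at 498 and 260 CPM in other mTEC, and it did not pass in DESeq2.

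Bitter taste receptors, the Tas2r family of G protein coupled receptors, were sparse and concentrated in few tuft cells. In replicate 2, 30 of 174 tuft cells (17.2%, exact interval 11.95 to 23.7) had a UMI of any of the 35 receptors, against 42 of 5441 other mTEC (0.772%). The 30 cells held 104 UMIs of 20 different receptors. Of them 9 had UMIs of 3 or more different receptors, and 1 cell had UMIs of 12. The 42 other mTEC held 53 UMIs, and none had more than 2 different receptors. In replicate 1 the tuft cells held 4 UMIs in 3 of 24 cells and other mTEC 2 UMIs in 2 of 1562. Of the 104 UMIs, 103 lay in cells with 3 to 6 rule genes. Tas2r105 (chromosome 6, 131686532 to 131687495) took 39 of them in 10 cells. Only Tas2r105 and Tas2r109 passed the low-count filter. They passed it through the tuft cell sums, where they were high, so no test is given for them. These receptors are a clustered family of similar genes, so the assignment of reads to single members is uncertain. Of the sweet and umami receptor subunits, Tas1r1 and Tas1r3 were too low to test.

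**Figure D2:**
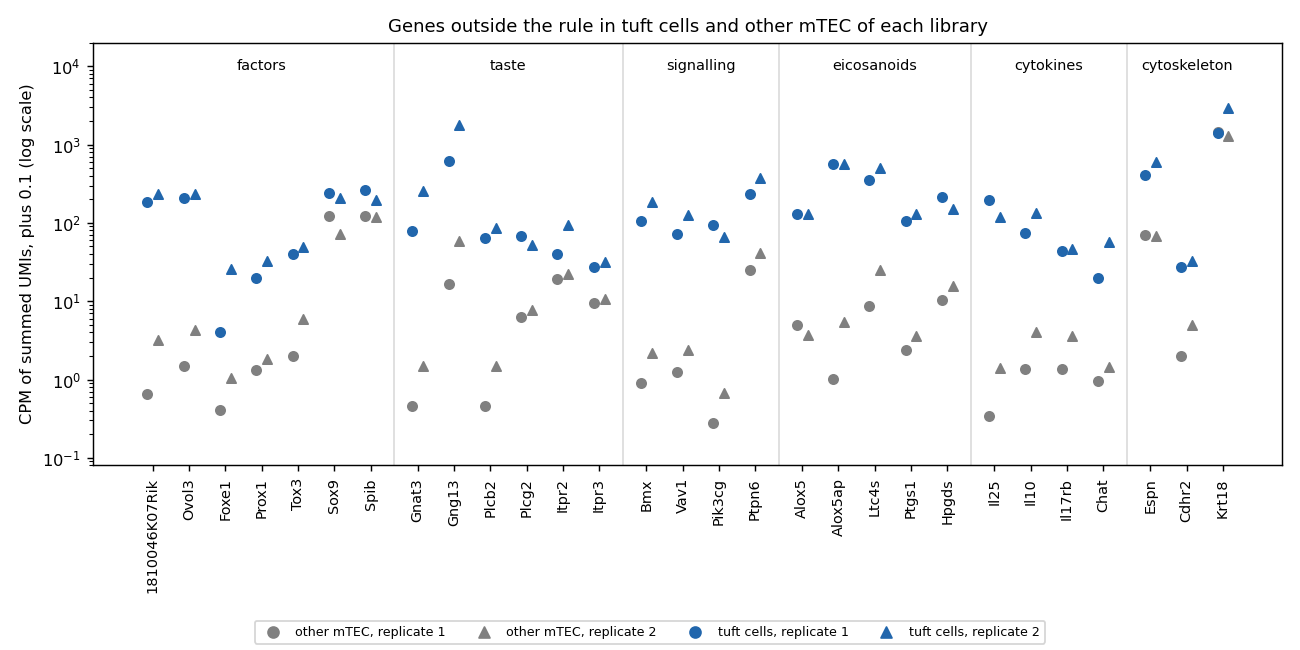
Each gene has 4 points, its CPM plus 0.1 (y axis, log scale) in tuft cells (blue) and other mTEC (grey) of replicate 1 (circles) and replicate 2 (triangles), grouped along the x axis by role. The blue points lie above the grey ones of the same library except for Krt18 in replicate 1, where tuft cells were at 1389 CPM and other mTEC at 1442 CPM.

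Most of the listed kinases, phosphatases and adaptors best known from blood cells were higher. Of 11 genes 8 rose and 0 fell, with a median log2 difference of 3.89. The catalytic subunit Pik3cg of PI3 kinase gamma stood at 94.7 and 65.3 CPM against 0.183 and 0.579 CPM, and its regulatory partner Pik3r5 at 98.7 and 93.4 CPM against 2.31 and 2.33 CPM (log2 difference 5.27 ± 0.34, edgeR adjusted p = 4.02e-50). The Tec family kinase Bmx stood at 107 and 184 CPM against 0.791 and 2.10 CPM. The kinase Matk (5.31 ± 0.35), the exchange factor Vav1 (5.76 ± 0.35) and the phosphatases Ptpn6 (3.13 ± 0.24), Ptpn18 (4.15 ± 0.23) and Inpp5d (3.89 ± 0.44) rose likewise. In the subset with 3 to 6 rule genes the summed list reached 3208 and 2786 CPM, and in the 57 cells with 1 or 2 it was 133 and 217 CPM, against 74.5 and 106 CPM in other mTEC.

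Genes for making leukotrienes and prostaglandins rose for some enzymes and fell for others, 4 and 2 of 12 (median log2 difference 0.17). Alox5ap, the activating protein of 5-lipoxygenase, stood at 572 and 563 CPM in tuft cells against 0.912 and 5.27 CPM. The lipoxygenase Alox5 itself (log2 difference 4.89 ± 0.31, edgeR adjusted p = 3.64e-53) stood at 130 and 129 CPM against 4.87 and 3.61 CPM, while Ltc4s, which makes a glutathione-linked leukotriene, stood at 351 and 501 CPM against 8.64 and 24.7 CPM (4.71 ± 0.24). Both leukotriene enzymes were thus well above other mTEC in each library. On the prostaglandin side, the constitutive cyclooxygenase gene Ptgs1 stood at 107 and 129 CPM against 2.25 and 3.49 CPM (5.25 ± 0.32). Hpgds, whose promoter is printed above, stood at 213 and 150 CPM against 10.2 and 15.7 CPM (3.67 ± 0.27). Ptgs2, the inducible cyclooxygenase, fell by 0.93 on the log2 scale (SE 0.31) and the lipoxygenase Alox15 by 0.76 (SE 0.25), with Alox15 at 90.8 and 66.4 CPM against 158 and 99.3 CPM. The decreases of Ptgs2 and Alox15 did not pass in DESeq2.

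Of 9 cytokine and cytokine receptor genes 2 rose and 0 fell (median log2 difference 0.53). Il25, the tuft cell alarmin, stood at 193 and 117 CPM against 0.243 and 1.31 CPM. The anti-inflammatory cytokine gene Il10 stood at 75.0 and 132 CPM against 1.28 and 3.90 CPM (5.26 ± 0.33, edgeR adjusted p = 5.99e-53), and Il17rb, a subunit of the IL-25 receptor, at 43.4 and 45.9 CPM against 1.28 and 3.55 CPM (4.11 ± 0.50). Il10 and Il17rb were thus higher in tuft cells of each library. The other 7 genes, Tslp, Il33 and Il4ra among them, did not pass. Chat, which makes acetylcholine, stood at 19.7 and 57.2 CPM against 0.852 and 1.36 CPM, and 0 of 2 genes of its list rose. The succinate receptor Sucnr1, a sensor of gut tuft cells, had 1 UMI in the tuft cells of replicate 1 and was at 6.48 CPM in those of replicate 2.

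Shares of cells with a UMI were compared after thinning each cell to 4000 UMIs, since tuft cells and other mTEC differed in depth. Lrmp was found in 54.5% (12 of 22) and 64.6% (106 of 164) of tuft cells in replicates 1 and 2, against 0.859% and 2.53% of other mTEC, and without thinning in 54.2% and 73.0% against 1.99% and 7.37%. Il25 was found in 18.2% (4 of 22, exact 95% interval 5.19 to 40.3) and 23.2% (38 of 164, 16.95 to 30.4) of tuft cells, against 0.0661% and 0.648% of other mTEC. Without thinning it was found in 29.2% (7 of 24) and 32.8% (57 of 174) of tuft cells, 0.256% and 1.45% of other mTEC, and 2 of 507 and 0 of 535 adult cTEC. Both genes were thus in a minority to a majority of tuft cells at this depth and in few other mTEC, and for Il10 the shares were 27.3% and 39.6% against 0.462% and 1.43%. Gng13 was less restricted, with 54.5% and 75.0% against 4.82% and 18.1%. Chat was found in 0 of 22 tuft cells of replicate 1, where the exact upper limit for cells with a UMI at this depth was 15.4%, and in 26.2% of those of replicate 2. Without thinning, Chat was found in 12.5% (3 of 24) and 32.8% (57 of 174) of tuft cells.

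**Figure D3:**
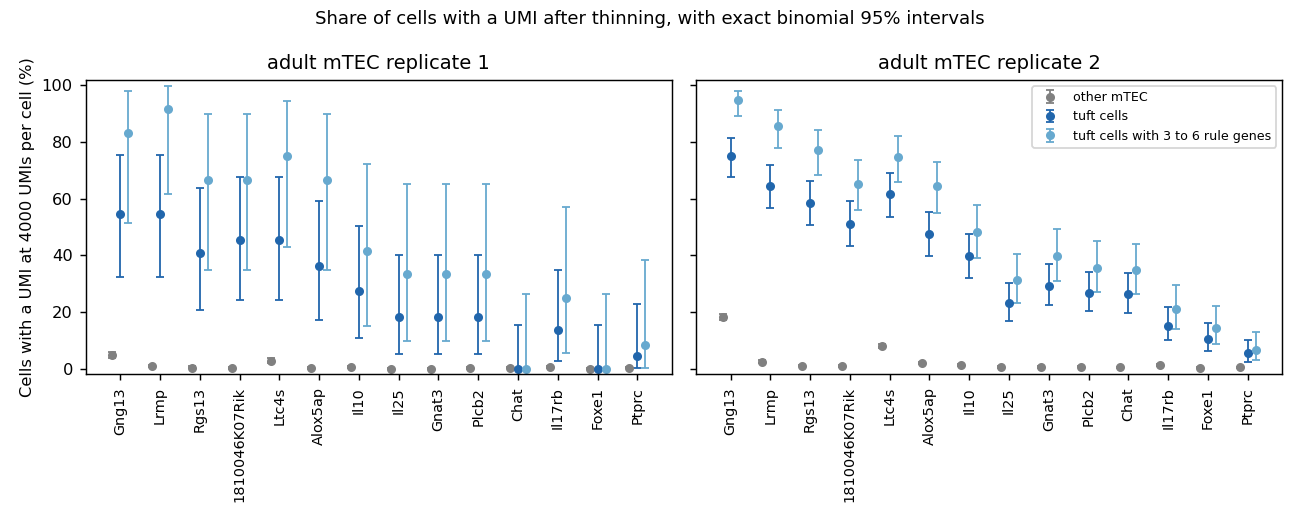
Share of cells with a UMI of each gene (y axis, %) after thinning to 4000 UMIs per cell, in other mTEC (grey), all tuft cells (dark blue) and tuft cells with 3 to 6 rule genes (light blue), one panel per library, with exact binomial 95% intervals that cover counting error only. Lrmp reached 54.5% and 64.6% of tuft cells against 0.859% and 2.53% of other mTEC, and the intervals of replicate 1, from 22 thinned tuft cells, are wide.

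Some genes better known from leukocytes and neurons were also higher. Of 7 genes associated with immune cells 4 rose and 1, the actin regulator Coro1a, fell (median log2 difference 1.71). Plac8 stood at 1536 and 1234 CPM in tuft cells against 48.4 and 49.3 CPM (4.72 ± 0.19). The surface protein gene Ly6g6f stood at 336 and 370 CPM against 0.912 and 4.43 CPM, and the adaptor Fyb at 193 and 407 CPM against 13.3 and 20.5 CPM (4.02 ± 0.25). Lrmp, an endoplasmic reticulum protein first found in lymphocytes, stood at 722 and 970 CPM against 3.83 and 7.11 CPM (7.21 ± 0.24, edgeR adjusted p = 5.6e-195). Ptprc, which encodes CD45, the antigen that the sort left out, rose by 2.96 ± 0.86 on the log2 scale (edgeR adjusted p = 0.012). It was found in 4.55% and 5.49% of tuft cells against 0.330% and 0.550% of other mTEC after thinning, as explained above. The level rested on 4 UMIs in 4 cells of replicate 1 and 25 UMIs in 21 cells of replicate 2, of which 4 and 19 cells had 3 to 6 rule genes. Of 7 neuron associated genes 5 rose and 0 fell (median 3.24), among them the adhesion genes Nrcam (3.24 ± 0.49), L1cam (3.62 ± 0.54) and Kirrel3 (3.95 ± 0.48). The membrane protein gene Slitrk6 stood at 43.4 and 35.6 CPM against 0 and 0.883 CPM.

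Markers of CD45+ and red blood cells, which the CD45- EpCAM+ sort would remove, were counted beside these genes. Of 9 tested thymocyte markers 0 rose, with a summed level of 15.8 and 37.8 CPM in tuft cells against 81.2 and 65.8 CPM in other mTEC and 8 of 12 markers at 0 in the tuft cells of replicate 1. Of 10 myeloid markers 0 rose or fell in edgeR at the adjusted threshold, and their sum was 533 and 757 CPM against 509 and 625 CPM, or 229 and 537 CPM in the subset with 3 to 6 rule genes. Of 4 mast cell and basophil markers 0 rose, and in replicate 1 all 6 of the list were at 0 in tuft cells. Of 2 B cell markers Cd79b rose, at 47.4 and 67.5 CPM against 16.9 and 26.5 CPM, and 3 of the 4 in the list were at 0 in replicate 1. Of 5 erythroid markers 0 rose, and Hba-a1 was at 0 and 3.78 CPM against 26.4 and 27.4 CPM. The part of CD45+ cells and of their free RNA in the leukocyte-type genes that rose was not tested. The calls of Coro1a and Cd79b were lost in DESeq2. The 2 libraries shared 20 cell barcodes, of which 0 belonged to tuft cells in both.

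Structural genes of the cell apex rose in part. Of 13 genes for microvilli and actin bundles 5 rose and 1 fell (median log2 difference 0.43). The bundling protein gene Espn stood at 415 and 596 CPM in tuft cells against 70.4 and 67.4 CPM (2.77 ± 0.21). The intermicrovillar link gene Cdhr2 stood at 27.6 and 32.9 CPM against 1.89 and 4.89 CPM (3.05 ± 0.55). Cdhr5 and Lcp1 rose too, and Fscn1, another bundling protein, fell by 0.82 on the log2 scale (SE 0.21) and had its call lost in DESeq2, as had Lcp1. Of 36 keratins 8 rose and of 23 keratins 4 fell (median -0.14), but single cells carried part of the rise. In replicate 2 a single cell held 252 of the 287 tuft cell UMIs of Krt15, 74 of 86 of Krt36 and 42 of 62 of Krt71, and in replicate 1 a single cell held 20 of 22 of Krt1. Krt19, a keratin of simple epithelia, stood at 166 and 563 CPM in tuft cells against 49.4 and 77.2 CPM in other mTEC (2.28 ± 0.23). Krt18 rose by 0.48 ± 0.14 on the log2 scale over both libraries, with 1389 and 2914 CPM against 1442 and 1276 CPM, so that the increase lay in replicate 2, and it did not pass in DESeq2.

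Some genes by which mTEC display antigens on MHC class II were lower in tuft cells. Of 17 MHC class II and costimulation genes 7 fell, 0 rose and 10 did not pass, with a median log2 difference of -0.55. The invariant chain gene Cd74 stood at 15700 and 10980 CPM in tuft cells against 21010 and 17420 CPM, and fell by 0.64 on the log2 scale (SE 0.09, edgeR adjusted p = 5.35e-11). H2-Aa fell by 0.55 (SE 0.11), H2-Ab1 by 0.51 (SE 0.11), the class II transactivator Ciita by 1.13 (SE 0.32) and the costimulatory ligand Icosl by 1.28 (SE 0.33). None of these 5 passed in DESeq2. In the subset with 3 to 6 rule genes Cd74 was lower still, at 6442 and 6546 CPM, and in the 57 cells with 1 or 2 it was at 23750 and 19300 CPM. Summed over the list, the subset stood at 13223 and 15698 CPM and the 57 cells at 49308 and 42233 CPM, against 42243 and 38278 CPM in other mTEC. All tuft cells stood at 32525 and 24928 CPM, near the 29501 and 25848 CPM of Ccl21a-high mTEC. Of 14 genes for presentation on MHC class I (median -0.31) 13 did not pass and 1 fell, the immunoproteasome subunit Psmb10 by 0.53 (SE 0.17), which did not pass in DESeq2. B2m, the class I light chain, stood at 10880 and 7370 CPM against 10760 and 7545 CPM.

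Some markers of the immature and the Aire expressing mTEC groups fell. Of 10 mTEC I markers 7 fell and 0 rose (median log2 difference -1.01). The chemokine Ccl21a, which draws thymocytes to the medulla, stood at 1109 and 1696 CPM in tuft cells against 6498 and 2918 CPM and fell by 1.74 on the log2 scale (SE 0.13, edgeR adjusted p = 1.66e-38). The basal keratin Krt14 fell by 1.16 (SE 0.17). In replicate 1 the mTEC I list summed to 2609 CPM in tuft cells and 586 CPM in the subset with 3 to 6 rule genes. It summed to 1690 CPM in mTEC with 2 or more Aire UMIs, and to 20125 and 36970 CPM in keratinised and Ccl21a-high mTEC. Of 9 mTEC II markers 4 fell and 0 rose (median -0.64). Aire, the regulator of tissue antigen expression, stood at 379 and 197 CPM against 434 and 403 CPM and fell by 0.73 (SE 0.19), and Fezf2, another such regulator, fell by 1.03 (SE 0.19). In the subset with 3 to 6 rule genes Aire was 136 and 119 CPM, and in the 57 cells 590 and 342 CPM. The mTEC II list summed in replicate 1 to 7231 CPM in tuft cells and 2945 CPM in the subset. In mTEC with 2 or more Aire UMIs it summed to 12479 CPM, and in keratinised and Ccl21a-high mTEC to 6020 and 2189 CPM. These ranges of mTEC were cut on genes of these lists. The calls of Aire, Ubd and Srgn were lost in DESeq2. Of 13 genes of TEC transcription and the NF-kB pathway, the epithelial factors Ehf (2.11 ± 0.26) and Elf3 (2.11 ± 0.23) rose and Relb and Nfkbia fell, of which Relb did not pass in DESeq2.

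Of 12 mTEC III markers, genes of keratinised epithelium, 5 rose and 0 fell (median log2 difference 0.85), but single cells carried part of this. Krtdap stood at 588 and 218 CPM in tuft cells against 164 and 180 CPM, and 1 cell held 138 of its 149 UMIs in replicate 1. Cnfn stood at 371 and 49.7 CPM against 16.1 and 28.8 CPM, with 91 of 94 UMIs of replicate 1 in 1 cell, and in the subset with 3 to 6 rule genes it was 25.5 and 25.7 CPM. The same held for the secretory marker Agr2, whose 120 UMIs in replicate 1 all lay in 1 cell and which was at 0 in the subset in both libraries. Of 5 secretory markers Agr2 alone rose, and of 3 such markers Fcgbp and Tff3 fell (median -1.01). The muscle regulator Myog was spread wider, over 5 cells in replicate 1 and 35 in replicate 2, at 233 and 68.6 CPM against 6.75 and 12.2 CPM (3.59 ± 0.29). Of 6 muscle markers Myog alone rose and 5 did not pass (median 0.31). Gp2, a microfold cell marker, stood at 15.8 and 136 CPM against 13.7 and 44.0 CPM (1.21 ± 0.31), a rise that lay in replicate 2. Of 5 microfold markers Gp2 alone rose, Ccl20 fell and 3 did not pass (median -0.23). Single cells carried much of the Myog level too, since 1 cell held 27 of its 59 UMIs in replicate 1 and 1 cell 50 of 127 in replicate 2. Of the genes of this paragraph, Krtdap, Agr2 and Gp2 did not pass in DESeq2. Of 3 neuroendocrine markers Insm1 and Stmn2 fell, and of 4 cTEC markers Ctsl and Prss16 fell and 0 rose.

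**Figure D4:**
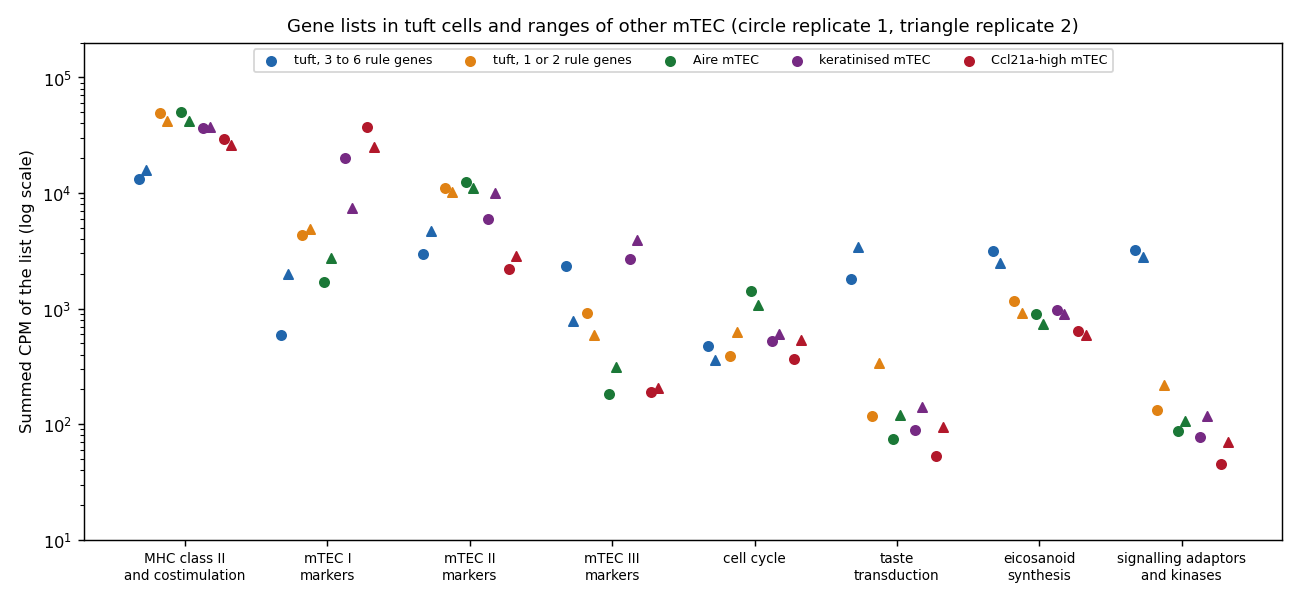
Summed CPM of 8 gene lists (y axis, log scale) in the 2 subsets of tuft cells and in 3 ranges of other mTEC, cut on Aire, keratin genes and Ccl21a, with circles for replicate 1 and triangles for replicate 2. The tuft cells with 3 to 6 rule genes (blue) lie below every other class for MHC class II (13223 and 15698 CPM) and above every other class for the taste, eicosanoid and adaptor lists. The ranges were cut on genes that belong to the mTEC I, II and III lists, so their own list is high by construction.

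Some proliferation genes were lower in tuft cells, with 5 of 12 cell cycle genes down and 0 of 18 up. Their summed level was 430 and 451 CPM in tuft cells against 1150 and 1015 CPM in other mTEC, but it was low in some of the latter too, at 526 and 598 CPM in keratinised and 369 and 535 CPM in Ccl21a-high mTEC, against 1414 and 1085 CPM in those with 2 or more Aire UMIs. Top2a was at 0 and 27.5 CPM against 41.5 and 65.7 CPM and Cdk1 at 19.7 and 29.2 CPM against 67.3 and 66.1 CPM. The decrease of Cdk1 did not pass in DESeq2. The chemokines Ccl11 and Ccl20 were lower too. Ccl11 stood at 27.6 and 11.9 CPM against 374 and 46.7 CPM and Ccl20 at 3.95 and 58.3 CPM against 137 and 211 CPM. Of 12 stress and immediate early genes 7 fell and Jund rose (0.59 ± 0.15), and Fos stood at 817 and 647 CPM against 1868 and 885 CPM, and neither passed in DESeq2. The sum of this list lay lower mainly in replicate 1, at 5412 CPM against 8996 CPM, and was 4754 CPM against 4888 CPM in replicate 2. In mTEC with 2 or more Aire UMIs it was 5745 and 3907 CPM, below the tuft cells in replicate 2. Of 82 ribosomal protein genes 13 fell and 0 rose (median -0.29), where 3.30% of all genes that reached the cutoff in tuft cells fell. Among those that fell, Rpl10 and Rps12 had 21 and 3 UMIs in tuft cells of replicate 1 and 5465 and 4285 in those of replicate 2. The 2 libraries thus counted some of these genes very differently. Of 81 genes of oxidative phosphorylation 3 rose, a smaller share than over all genes, and 0 fell (median 0.12). The largest of these 3 was the succinate dehydrogenase subunit Sdha, at 521 and 360 CPM in tuft cells against 95.3 and 95.4 CPM in other mTEC (2.08 ± 0.21, edgeR adjusted p = 3.7e-21).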

How the data were processed

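Count matrices of 8 libraries were deposited, holding whole UMI counts per gene and cell, which the authors made with 10x Genomics Cell Ranger. The submitters' processing notes name Cell Ranger 2.0.1, STAR 2.5.1b, bcl2fastq 2.17 and the mm10 build, and the header of some matrices names Cell Ranger 3.0.1. The 2 adult mTEC libraries list 27998 and 31053 genes, and the 27514 genes in both lists entered the tests. Replicate numbers are names given in accession order. Libraries held 16693205 and 67536650 UMIs in 1586 and 5615 cells within the limits.

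UMIs were summed over tuft cells and over other mTEC of each library. The 4 sums were fitted with edgeR 4.0.16 (TMM scaling, filterByExpr, quasi-likelihood test, Benjamini-Hochberg adjustment) with the library as a block, because both sums of a pair come from the same library; 1 residual degree of freedom was left. Each SE is the size of the log2 difference divided by the square root of the test's F value. It rests on a spread shared over genes and does not measure how well the libraries match. The rule genes were kept out of the calls. CPM are counts per 1000000 UMIs of the class. Intervals are exact Clopper-Pearson at 95% and cover counting error only. The edgeR fit of tuft cells against other mTEC was checked on counts simulated from its own fitted spread, with large changes set in well expressed genes. Small changes, changes in low genes and the DESeq2 test were not checked in this way. Python 3.11.15 (numpy 2.4.6, scipy 1.17.1, pandas 2.3.3, matplotlib 3.10.9), R 4.3.3, limma 3.58.1 and, as an alternative, DESeq2 1.42.0 were used. No doublet caller was run.

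The named genes are members of the role lists and the 10 genes per direction with the largest log2 difference among called genes with an average log2 CPM of at least 5. Members and lists were chosen with earlier results of these data known, and several list genes come from a marker list made on these samples. Alternatives were other scaling, no low-count filter, no block, rule thresholds of 3 and 8 UMIs, thinned cells, all deposited cells, leaving out each library and, chosen after seeing the data, tuft cells with 3 or more rule genes. Promoters are RefSeq sequences of GRCm38.p6, matched by gene for 11514 tested genes besides the rule genes.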

Additional observations from a re-analysis of the deposited data

How the results depend on the processing

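The count of genes higher in tuft cells was 647, and of genes lower 466. It was 328 and 68 with DESeq2, 163 and 17 with the rule at 3 UMIs, 415 and 290 in cells thinned to 4000 UMIs, 1070 and 964 with all deposited cells, and 1104 and 1103 with the 141 tuft cells of 3 or more rule genes, an alternative chosen after seeing the data, which shared 569 of the higher and 433 of the lower genes. Without the replicate block 128 genes were higher and 0 lower, with 873 lower at an unadjusted p under 0.05. Leaving out a library leaves no residual degrees of freedom, so it gives values and no calls. The share of tuft cells moved from 1.51% and 3.10% to 3.66% and 7.03% at 3 UMIs, 0.757% and 2.12% at 8 UMIs, 0.521% and 1.96% after thinning, 2.48% and 3.74% with all deposited cells, and 0.883% and 2.26% with 3 or more rule genes. The causes of these changes were not tested.

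Of the named genes, 76 reached the filter's cutoff in the class where they were lower and passed, and with another scaling each kept direction and call. DESeq2 lost 31 of these calls, no block 50, the rule at 3 UMIs 44 and thinning 14. From 1 library alone, 42 of the 76 values moved by more than the spread without replicate 1 and 44 without replicate 2, and 1 turned in each. Directions turned for Alox15 (0.13) at 3 UMIs, Krtdap (-0.56) at 8 UMIs and Cnfn (-0.057) with 3 or more rule genes. Krt18 turned without replicate 2 (-0.053) and not without replicate 1 (1.185). Agr2 turned at 8 UMIs (-11.315), with 3 or more rule genes (-11.242) and without replicate 1 (-1.169), and not without replicate 2 (4.589). Dcpp1, which is not among the 76, turned at 3 UMIs (0.10). Values from 1 library alone are log2 ratios of CPM with 10 CPM added to each side. For rule genes in cells chosen by the other 5, these ranged from 3.52 to 4.051 for Trpm5, 5.084 to 5.13 for Avil, 3.066 to 3.712 for Dclk1, 4.235 to 5.228 for Gnb3, 4.35 to 4.468 for Sh2d6 and 2.302 to 2.555 for Pou2f3.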
